A study of Bos taurus with 90 samples.

Results

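The 200 genes described here were the ones whose level in mural granulosa cells (MGCs) differed most between cow follicles of the same size class. They were taken from a table of 27270 genes in 3 steps. CPM (reads of a gene over all reads counted in that library, scaled to 1000000) were computed for 27 MGC libraries, the 6991 genes with a mean of 20 CPM or more were kept, and these were ranked by the variance of log2(CPM+1) around the mean of each follicle's own size class. The 200 highest ranks are called the variable genes below, and rank 1 has the widest spread. They were thus chosen by the MGC values themselves, and the spread in MGCs is a description and carries no test.

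The series holds 30 antral follicles of Bos taurus, dissected from slaughterhouse ovaries, with MGCs, cumulus cells (CCs) and 1 oocyte sequenced from each, which gives 90 libraries. All follicles were untreated, and the labels do not give the age or breed of the cows. Of the 27 follicles retained by the study, 9 were small (3.1 to 3.8 mm in diameter, S1 to S9), 8 were medium (6.2 to 7.0 mm, M1 to M8) and 10 were large (9.6 to 11.6 mm, L1 to L10), numbered within a class in order of diameter. The other 3 follicles, 1 small and 2 medium, were removed by the authors on mapping rate and mitochondrial share. The study placed 10 follicles in a healthy set (S4, S5, S6, M5, M6, M8, L5, L8, L9 and L10) and read the other 17 as subordinate follicles at an early molecular stage of atresia, using MGC expression. The same MGC libraries therefore fixed both the healthy set and the variable genes. The study collected the follicles in several batches of few ovaries, so follicles can share a cow, an ovary or a batch. No source says which did. The p-values below therefore treat follicles as independent and measure the spread between follicles only. The first 3 digits of the follicle identifiers (the prefix) took 11 values, their meaning is not stated, and the 3 healthy small follicles shared 1 prefix.

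MGC libraries were standard bulk RNA-seq, whereas CC and oocyte libraries were amplified by SMART-seq2, so cell type and protocol cannot be told apart in any level set across them. The retained MGC libraries held 26739954 to 39266980 counts, the CC libraries 8760201 to 40180192 and the oocyte libraries 8442938 to 53173320. The CC library of S7 stood apart, with 1666212 counts in 1066 genes, and it was left out of the CC results.

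Mural granulosa cells line the wall of the antral follicle, respond to follicle-stimulating hormone, divide as the follicle grows and make oestradiol from androgens supplied by the theca. Cumulus cells are the granulosa cells that surround the oocyte and are joined to it by gap junctions. Most antral follicles do not ovulate. They undergo atresia, in which mural cells are typically among the first to stop dividing and to die, while the oocyte and its cumulus are affected later. A follicle's diameter thus does not fix its state, and follicles of 1 size class can be growing, dominant, subordinate or atretic.

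The table lists genes by Ensembl identifier and no symbol could be paired with any of them, so the functions, positions and sequences of the variable genes are not given here, and the labelled cell types were not checked against marker genes. The variable genes are described by rank and by the way they moved together, and 4 of them are named by identifier.

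Within a size class, the variable genes spanned a very wide range in MGCs. Their within-class SD was 1.63 to 3.68 on the log2(CPM+1) scale with a median of 1.90, against a median of 0.468 over all 6991 genes. In such bulk libraries fewer cells of a type and less RNA of a gene per cell cannot be told apart. The ratio of the highest to the lowest follicle of a class, taken on CPM+1 in the class where it was widest, had a median of 98.3 and ran from 30.5 to 5769. The 200th gene had a variance of 2.669 and the 201st of 2.666, so the edge of the list marks no break in the ranking. Of the spread of a typical variable gene over all 27 libraries, 4.73% lay between size classes, against 9.00% for a typical gene of the 6991. The genes were chosen for a wide spread within a class, so a lower share between classes was favoured by the choice and is no result.

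The spread was unevenly distributed over the follicles. Large follicles held 41.3% of the variable genes' within-class sum of squares, medium follicles 35.9% and small follicles 22.8%. L6 alone held 12.6%, followed by S2 with 6.98%, M6 with 6.72% and L3 with 6.26%. L6 was also the follicle farthest from its class mean for 70 of the 200 genes. Within the healthy set the typical variable gene had an SD of 0.294 in the small follicles, 0.603 in the medium ones and 1.01 in the large ones. Among the other follicles the same SDs were 1.72, 1.67 and 2.33. Over the 6991 genes the corresponding medians were 0.178, 0.240 and 0.373 in the healthy set and 0.471, 0.338 and 0.438 outside it. Healthy follicles of a class were thus closer to each other than the other follicles were, most clearly among the small ones, where the healthy follicles also shared a prefix.

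Most variable genes followed 1 of 2 opposite patterns. Clustering of their MGC deviations from the class mean gave group A with 115 genes, group B with 73, group C with 5, and 7 genes that joined no group. The median correlation across the 27 follicles was 0.666 within group A, 0.882 within group B and -0.618 between both groups. These correlations share their libraries and totals and describe the set only. The first principal component of the deviations held 64.7% of their variance and the second 16.1%. Where a follicle had group A high it usually had group B low, as the heat map of all 200 genes shows.

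**Figure D1:**
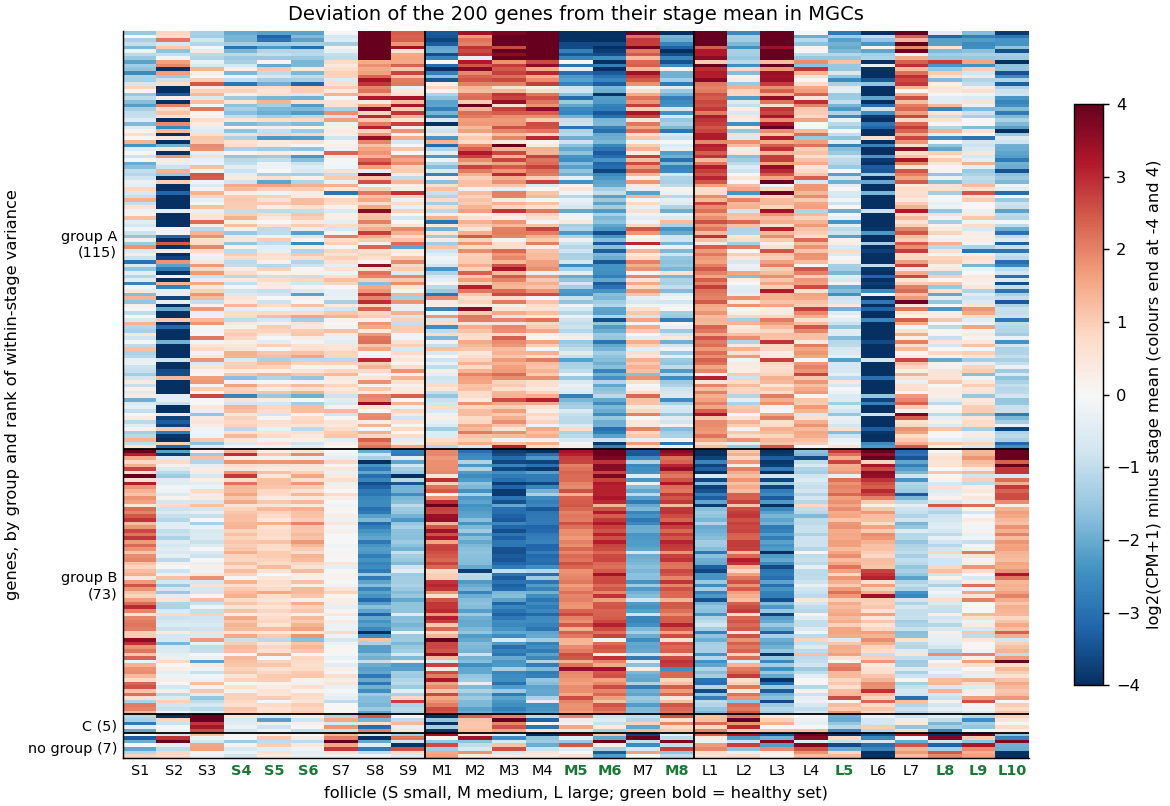
Deviation of each of the 200 variable genes (rows, ordered by group and rank) from its size-class mean in each of the 27 MGC libraries (columns, healthy set in green bold), as log2(CPM+1) minus the class mean, with colours ending at -4 and 4. Group A (115 genes) and group B (73 genes) took opposite colours in S8, M2, M3, M4, M7, L1, L3 and L7, and in L6 nearly all of group A was below the mean.

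In 10 follicles group A was high and group B was low: S8, S9, M2, M3, M4, M7, L1, L3, L4 and L7. Here both groups had to deviate from the class mean by more than 0.5 on average. None of these 10 was in the healthy set. The median gene of group A stood at 65.2 to 184 CPM in them and the median gene of group B at 3.14 to 11.8 CPM. In 8 follicles the order was reversed, with group A at 0.904 to 25.7 CPM and group B at 41.2 to 175 CPM. Of these, M5, M6, M8, L5 and L10 were in the healthy set and S1, M1 and L6 were not. The remaining 9 follicles, of which 5 were healthy, lay between. Both patterns occurred under 6 prefixes each, and prefixes 505 and 705 were found in both. Under these, S8 and M3 had the first pattern, and S1, L6 and L10 the second. The other prefixes of these follicles held 1 pattern only. S9 and M4 (717), M7 and L1 (718), M2 and L3 (721) and L4 and L7 (628) had the first. M1 (622), M5 and M8 (724), M6 (710) and L5 (707) had the second. Prefix and pattern thus cannot be fully told apart.

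Averaged over its genes, group A was below its class mean in 10 of 10 healthy follicles, with a mean deviation of -2.42 to -0.12. Gene by gene, it was split in the healthy S4, S5, S6, L8 and L9. There 63, 57, 56, 59 and 56 of its 115 genes were above the class mean. Outside the healthy set the average of group A was above the mean in 13 of 17 follicles, and the exceptions were S1, S2, M1 and L6. Group B was above its class mean in 9 of 10 healthy follicles and in 5 of the other 17. L8 was the healthy follicle with group B slightly below the mean (-0.20). L6, an 11.2 mm follicle outside the healthy set, had the lowest group A of all, with 3 of 115 genes above the class mean, beside 72 of 73 genes of group B above it. S2 had both groups low, at a median of 4.25 CPM for group A and 19.7 CPM for group B.

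**Figure D2:**
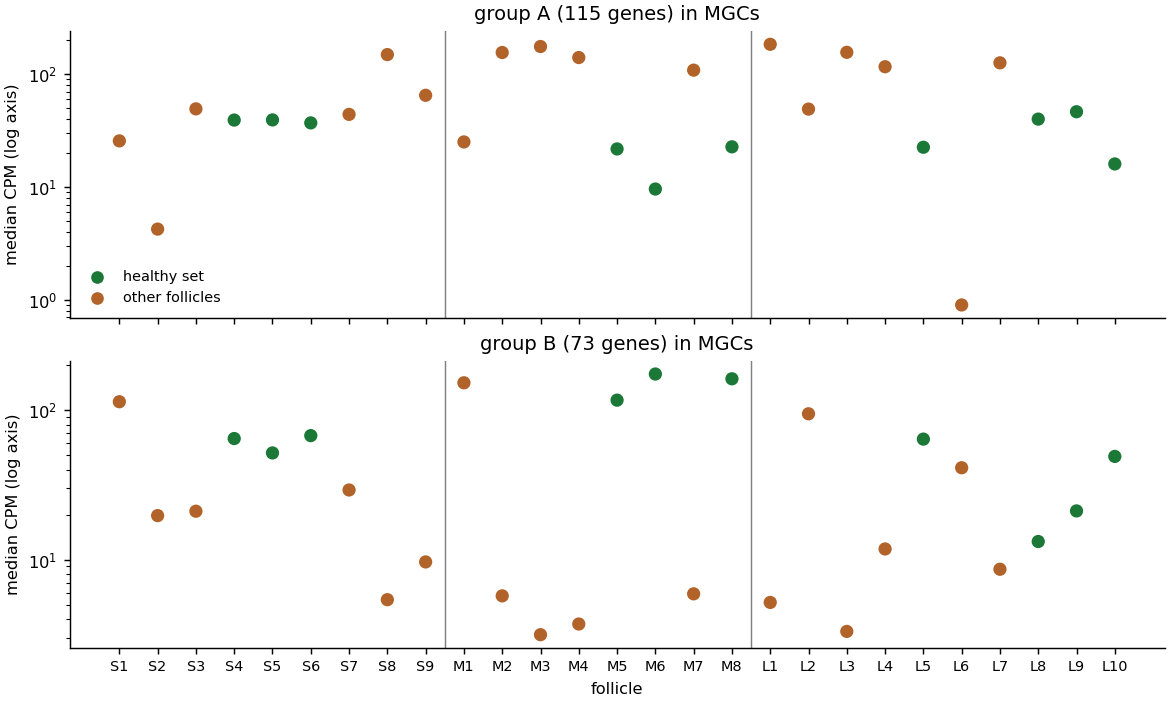
Median CPM over the genes of group A (upper panel) and group B (lower panel) in the MGC library of each follicle, on log axes, with the healthy set in green and the vertical lines between size classes. Group A ran from 0.904 CPM in L6 to 184 CPM in L1, and group B from 3.14 CPM in M3 to 175 CPM in M6.

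Set against the study's health classes, group B was mostly higher in healthy follicles, and group A was mostly lower in the medium and large ones. These counts are a description, because the MGC values chose both the genes and the healthy set. The mean of the healthy follicles was higher for 70 of the 73 genes of group B in small follicles, for all 73 in medium and for 71 in large ones, with median differences of 1.42, 3.70 and 1.10 on the log2(CPM+1) scale. For group A it was lower for 56 of 115 genes among small follicles, for 114 among medium ones and for 108 among large ones, with median differences of 0.12, -2.55 and -1.05. Healthy and other follicles did not overlap for 32 of the 200 genes in small follicles (16.0%), for 85 in medium (42.5%) and for 5 in large ones (2.5%). Over all 6991 genes the same shares were 18.0%, 35.4% and 3.48%, so the variable genes separated the health classes about as often as other genes did.

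ENSBTAG00000014890 (rank 2, group B) had one of the widest ranges of all. Its MGC level was 16.2, 7.61 and 9.20 CPM in the healthy small follicles S4, S5 and S6, and 0.059 to 163 CPM (median 3.34) in the other 6. Among medium follicles it was 155, 595 and 193 CPM in the healthy M5, M6 and M8, against 58.4, 0.940, 0.119, 0 and 0.534 CPM in M1, M2, M3, M4 and M7. Among large follicles it was 600, 86.1, 215 and 5768 CPM in the healthy L5, L8, L9 and L10, and 0 to 5539 CPM (median 17.9) in the other 6, with L6 at 5539 CPM. The health classes did not overlap in medium follicles but did in small and large ones, where S1 and L6 were higher than most or all healthy follicles.

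ENSBTAG00000048508 (rank 6, group B) was the most abundant of the 4 named genes in MGCs. It was at 891, 252 and 428 CPM in S4, S5 and S6 and at 7.40 to 1029 CPM (median 53.5) in the other small follicles. In M5, M6 and M8 it was at 6912, 15142 and 8000 CPM, and in M1, M2, M3, M4 and M7 at 3012, 130, 64.7, 94.1 and 74.6 CPM. In L5, L8, L9 and L10 it was at 8808, 2660, 5096 and 30879 CPM, and in the other large follicles at 85.2 to 22359 CPM (median 402). The health classes did not overlap in medium follicles. L6 was again the highest follicle outside the healthy set, and S1 and M1 were the highest of their classes outside it.

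ENSBTAG00000004104 (rank 1, group A) had the widest within-class spread of all genes ranked. It stood at 1.23, 1.05 and 1.05 CPM in S4, S5 and S6 and at 2.17 to 542 CPM (median 11.4) in the other small follicles. It stood at 0.282, 0.187 and 0.611 CPM in M5, M6 and M8 and at 1.65, 279, 368, 514 and 912 CPM in M1, M2, M3, M4 and M7. It stood at 1.74, 13.4, 4.93 and 0.375 CPM in L5, L8, L9 and L10 and at 0.213 to 905 CPM (median 303) in the other large follicles. The health classes did not overlap in small and medium follicles, and in large ones L2 was within and L6 below the healthy range.

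ENSBTAG00000000836 (rank 3, group A) was at 14.9, 5.27 and 15.8 CPM in S4, S5 and S6 and at 21.0 to 3117 CPM (median 77.0) in the other small follicles. It was at 2.57, 4.0 and 20.4 CPM in M5, M6 and M8 and at 6.22, 248, 2162 and 2440 CPM in M1, M2, M3 and M4, with M7 at 347 CPM. It was at 2.93, 0.114, 0.525 and 0.375 CPM in L5, L8, L9 and L10 and at 1.55 to 923 CPM (median 28.3) in the other large follicles. The health classes did not overlap in small follicles, M1 fell into the healthy range in medium ones, and L4 did in large ones. The highest levels, from 513 to 3117 CPM, were in S8, M3, M4, L1 and L3, and all of them were among the 10 follicles with group A high.

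**Figure D3:**
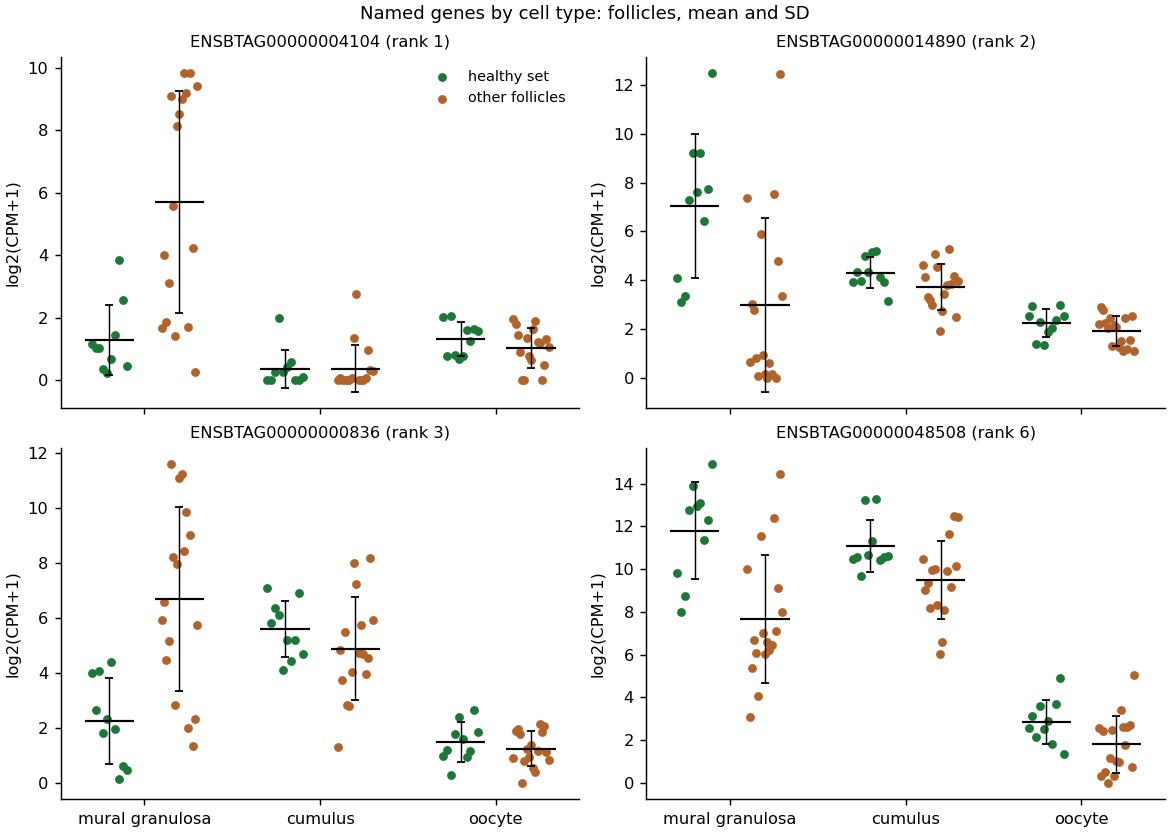
Level of the 4 named genes as log2(CPM+1) in mural granulosa, cumulus and oocyte libraries, 1 point per follicle, with the mean and SD of the healthy set (green, n = 10) and of the other follicles (n = 17, or 16 in cumulus without S7). The genes were chosen for their spread in mural granulosa cells, so the wider split there was built in. ENSBTAG00000004104 stayed below 5.81 CPM in cumulus cells and 3.20 CPM in oocytes.

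Whether the variable genes also differed between size classes was tested on all 14910 genes that passed a filter of more than 1 CPM in at least 15 libraries of 1 cell type, of which 198 were variable genes. Differences between class means are not what the ranking used, but the spread within a class is, and the test weighs the differences against that spread. A wide spread makes a call harder and a fold above 2 likelier. The shares of the variable genes beside those of all genes are therefore a description. A gene was called at a fold change above 2 and an adjusted p below 0.05 in edgeR's quasi-likelihood test with Benjamini-Hochberg adjustment. From small to medium follicles none of the 198 was called, against 0.423% of all genes, with 11 (5.56%) past a fold of 2 at an unadjusted p below 0.05, against 5.53% of all genes, and DESeq2 called 3 (1.52%), against 1.64% of all genes. From medium to large follicles none was called, against 0.0% of all genes, with 10 (5.05%) past a fold of 2 at an unadjusted p below 0.05, against 4.55%, and none called by DESeq2, against 0.55%. In this fit the median difference was -1.30 in group B, with 23 of 73 genes higher in large follicles, and -0.10 in group A, with 43 of 113 higher. With the prefix as a covariate none was called either, but the directions changed: 71 of 73 genes of group B were higher in large follicles (median 1.85) and 3 of 113 genes of group A (median -1.36), and 67 of 198 (33.8%) were past a fold of 2 at an unadjusted p below 0.05, against 7.67% of all genes. The direction of both groups from medium to large follicles thus depends on whether the prefix is in the fit. From small to large follicles 11 of 198 (5.56%) were called, 7 higher and 4 lower in large follicles, against 4.21% of all genes (1.52% higher and 2.7% lower), and 35 (17.7%) were past a fold of 2 at an unadjusted p below 0.05, against 9.09%. A called share this near to the background is no result about the variable genes. Of the 11, 8 were in group B (6 higher, 2 lower), 2 in group A (1 higher, 1 lower) and 1 in no group (lower). Leaving out 1 library at a time gave 3 to 13 calls, the fewest without L9, and with the prefix as a covariate 22 of 198 were called (11.1%, against 8.28% of all genes), 12 of group B higher and 9 of group A lower. DESeq2 called 21 of 198 (10.6%), against 5.82%.

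Of the named genes, ENSBTAG00000048508 rose from small to large follicles by 4.85 ± 1.32 on the log2 scale (SE; edgeR adjusted p = 0.0251), and lost the call without L10 (adjusted p = 0.0513). ENSBTAG00000014890 rose by 6.21 ± 1.93 (edgeR adjusted p = 0.0481), a call lost when any of 16 single libraries was left out and when no genes were filtered. For ENSBTAG00000004104 the difference was 1.74 ± 1.53 (edgeR adjusted p = 0.553), and for ENSBTAG00000000836 it was -1.36 ± 1.45 (edgeR adjusted p = 0.636). Their spread within a class was too wide for either difference to stand apart from it.

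The same fit was run on the 10 healthy follicles alone, 3 small, 3 medium and 4 large. Its counts are a description and nothing is read from their excess over all genes, because the deviations of these follicles from their class means were among the values that chose the variable genes. From small to medium follicles 15 of 198 (7.58%) were called, 3 higher and 12 lower, against 1.68% of the 14725 genes tested (0.577% higher, 1.1% lower). From medium to large follicles 60 of 198 (30.3%) were called, 19 higher and 41 lower, against 8.0% (3.33% and 4.67%). From small to large follicles 50 of 198 (25.3%) were called, 16 higher and 34 lower, against 8.79% (3.81% and 4.98%). Group B accounted for 38 of the 41 genes that fell from medium to large healthy follicles, and group A for 12 of the 12 that fell from small to medium and 28 of the 34 that fell from small to large. Genes of group A that rose from medium to large numbered 17. The healthy small follicles shared 1 prefix, so prefix and size cannot be told apart in the comparisons with them, and over all 27 follicles the medium-to-large direction of groups A and B reversed with the prefix as a covariate, as given above.

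The matched cumulus cells and oocytes were not used to choose the genes. The median gene of group B was present in all 3 cell types. It stood at 52.0 CPM in MGCs, 77.6 CPM in CCs and 30.6 CPM in oocytes (medians over genes of the mean over libraries). Over the 6991 genes these medians were 50.5, 42.3 and 35.9 CPM, so presence in all 3 was not particular to group B. Group A was largely mural, with a median of 79.9 CPM in MGCs, 1.47 CPM in CCs and 0.863 CPM in oocytes. In CCs 67 of the 73 genes of group B but 21 of the 115 genes of group A had a mean of 20 CPM or more, and 18 genes of group A were below 1 CPM in every CC library. In oocytes 40 of 73 (54.8%) and 16 of 115 (13.9%) had a mean of 20 CPM or more, against 62.5% of the 6991 genes. Of the 73 genes of group B, 61 had a mean of 1 CPM or more there. Because the libraries were made by different protocols, the levels are given side by side only.

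Most of these genes were not among the most variable of the matched cells, and many were too low there to be ranked. Of the 95 that had a mean of 20 CPM or more in CCs, 16 (16.8%) were among the 200 with the highest variance, against 3.26% of the 6135 genes ranked. In oocytes 2 of 58 were (3.45%), against 3.02% of 6619. Of the 6991 genes kept in MGCs, 5244 also had a mean of 20 CPM or more in CCs. Their median within-class SD in CCs was 0.729, against 1.0 for the 95 variable genes among them. In oocytes the median was 0.483 for 58 variable genes and 0.472 for the 4368 of the 6991 genes with a mean of 20 CPM or more there. From follicle to follicle, the median gene of group B ran from 28.4 to 156 CPM in CCs and from 12.6 to 39.4 CPM in oocytes. In MGCs it ran from 3.14 to 175 CPM. The genes were chosen for their MGC spread, so a wider range in MGCs was built in and is no result about the cell types. S1, with group B high in MGCs, had the lowest group B in CCs, and L2 had the highest.

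In CCs, no variable gene was called between healthy and other follicles with size class as a covariate (26 libraries; 198 of the 15109 genes tested, background 0.0%). In that edgeR test 32 of 198 (16.2%) had a fold change above 2 at an unadjusted p below 0.05, against 5.49% of all genes, and 23 of the 32 were in group A. With DESeq2, 11 of 198 (5.56%) were called, 3 of group B higher in healthy follicles and 7 of group A and 1 ungrouped gene lower, against 1.33% of all genes. The filter admitted genes through any 1 cell type, and only 64 of the 115 genes of group A had a mean of 1 CPM or more in CCs. With edgeR's filterByExpr, which drops genes low in the tested libraries, 30 of 168 (17.9%) were past the same unadjusted limit, against 4.87%. Of these 30, 21 were in group A. The CC difference was above 0 for 51 of 73 genes of group B and for 29 of 113 genes of group A. With filterByExpr these were 49 of 73 and 22 of 83. With the prefix as a covariate the counts above 0 were 36 of 73 and 50 of 113, and the number at an unadjusted p below 0.05 was 18 of 198 (9.09%), against 6.39% of all genes.

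ENSBTAG00000048508 was at 825 to 1496 CPM in the CCs of healthy small follicles, 1627 to 9701 CPM in medium and 1381 to 9986 CPM in large ones. In the CCs of other follicles it was at 293 to 1423, 64.4 to 1035 and 579 to 5694 CPM. The classes did not overlap in medium follicles and overlapped in small and large ones, and the difference over all was 1.30 ± 0.62 on the log2 scale (SE; edgeR adjusted p = 0.391). ENSBTAG00000014890 was at 2.78 to 38.0 CPM in CCs, with a difference of 0.27 ± 0.38 (edgeR adjusted p = 0.806). ENSBTAG00000000836 was at 1.49 to 293 CPM in CCs, with L6, M3, M4, S4 and L9 above 100 CPM and a difference of 0.04 ± 0.66 over all. In small follicles its CC levels were 55.8 to 136 CPM in healthy and 1.49 to 44.6 CPM in other follicles, with no overlap and in the direction opposite to MGCs. In medium follicles they were 16.4 to 67.9 and 5.97 to 256 CPM, and in large ones 20.9 to 119 and 14.5 to 293 CPM, with overlap in both. The share of all genes without overlap in CCs was not counted. The lack of overlap in CCs, for this gene and for ENSBTAG00000048508, is therefore a description only. ENSBTAG00000004104 was below 1 CPM on average in CCs, and no fold is given.

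In oocytes, none of 189 variable genes was called between healthy and other follicles (27 libraries; 14936 genes tested, background 0.0%). In that edgeR test 11 of 189 (5.82%) had a fold change above 2 at an unadjusted p below 0.05, against 1.67% of all genes, and 9 of the 11 were in group A. With the prefix as a covariate there were 7 of 189 (3.7%), against 1.41%, none of them in group A and 7 in group B, and with edgeR's filterByExpr 4 of 153 (2.61%), against 0.658%, 1 of them in group A. The share in group A therefore depended on the fit, and only 56 of its 115 genes had a mean of 1 CPM or more in oocytes. DESeq2 called 1 of 189, in group A and higher in healthy follicles, and 5 genes in all (0.0335%). In oocytes the 4 named genes reached at most 6.85 CPM for rank 2, 32.5 CPM for rank 6, 3.20 CPM for rank 1 and 5.38 CPM for rank 3.

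The matched design allowed a gene-by-gene question: among follicles of a size class, did the CC level follow the MGC level of the same follicle? For each of 11581 genes with a mean of 1 CPM or more in both, CC log2(CPM+1) was regressed on MGC log2(CPM+1) and size class over 26 follicles, with variances moderated by limma. Of the 149 variable genes tested, 9 (6.04%) had a slope past an adjusted p of 0.05, all positive, against 0.544% of all genes (0.466% positive). At an unadjusted p below 0.05 there were 41 (27.5%), against 11.9%. They were ranks 10, 23, 24 and 92 of no group, rank 47 of group C, ranks 49, 83 and 131 of group A and rank 21 of group B. The partial correlation was above 0 for 129 of 149 (86.6%), against 50.8% of all genes, and its median was 0.243 against 0.006. It was above 0 for 53 of 64 genes of group A and 64 of 73 genes of group B. For the same slope and residual spread, a gene with a wider MGC spread has a larger partial correlation, and these genes were chosen for that spread.

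**Figure D4:**
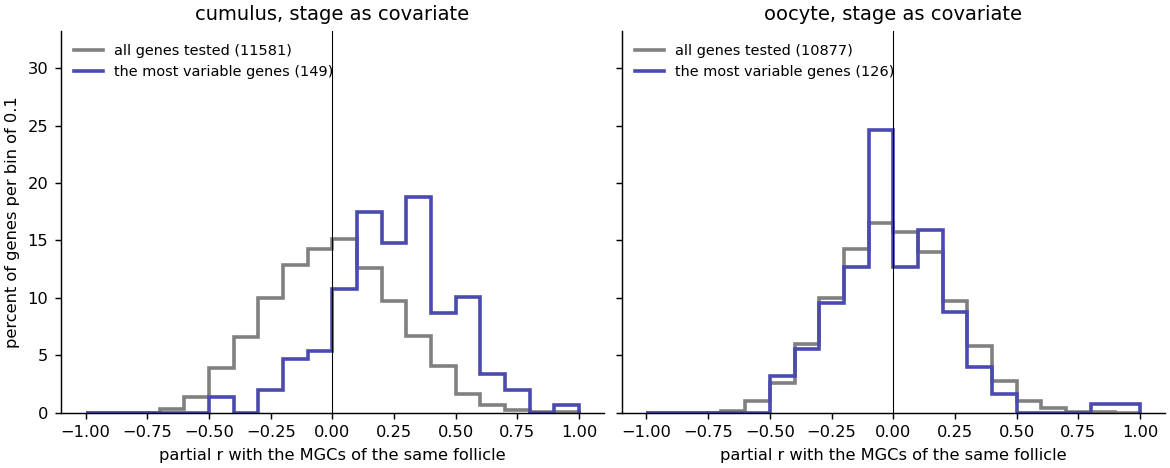
Share of genes by partial correlation between the MGC level and the level in cumulus cells (left, 26 follicles) or the oocyte (right, 27 follicles) of the same follicle with size class as a covariate, in bins of 0.1, for all genes tested (grey) and for the variable genes (blue). In cumulus cells 86.6% of the variable genes lay above 0 against 50.8% of all genes, and in oocytes 44.4% against 49.4%.

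Over the 16 follicles outside the healthy set with a CC library, the correlation was above 0 for 76.3% of variable genes against 51.7% of all genes. There 3 slopes were called (1.97%, against 0.156%). Whether health class contributes to the shift toward positive values was not tested. With the prefix as a covariate the correlation was above 0 for 71.1% against 54.3%, and 4 slopes were called (2.68%, against 0.173%). With ranks in place of levels it was above 0 for 87.9% against 52.4%, and no slope was called, against 0.0259% of all genes. The number of slopes called fell to 5 when M4, M6, M8 or L1 was left out.

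In oocytes the shift was not present. Of 126 variable genes among the 10877 tested, the partial correlation with MGCs was above 0 for 56 (44.4%), against 49.4% of all genes. Slopes were past the threshold for 2 of 126 (1.59%), ranks 23 and 92, both positive, against 0.0919% of all genes. Among all genes tested, 6 passed in both CCs and oocytes, and 2 of the 6 were these variable genes.

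The gene of rank 23, in no group, was present in all 3 cell types of a few follicles and nearly absent from the others. In MGCs it stood at 159 CPM in S2, 148 in S7, 98.9 in M6, 87.6 in M8, 77.1 in L3 and 76.3 in L10, and at 0.439 to 3.93 CPM in the other 21 follicles. In the CCs of the same follicles it stood at 167 CPM in S2, 227 in M6, 179 in M8, 223 in L3 and 100 in L10, and at 0.114 to 3.14 CPM in the other 21. In the oocytes of the 6 follicles it stood at 23.6 to 48.3 CPM, and at 0 to 2.17 CPM in the rest. No follicle was high in 1 cell type and low in another. The slope was 1.21 ± 0.07 on the log2(CPM+1) scale in CCs (SE; limma-moderated adjusted p = 9.55e-13) and 0.79 ± 0.06 in oocytes (adjusted p = 2.79e-09). The follicles fell in separate sets, and both slopes were fitted across them. Their p-values thus take in the gap between the sets, and the relation within each set was not tested. The 6 high follicles came from all size classes, 3 of them (M6, M8 and L10) were healthy, and they carried 5 prefixes, 4 of which also held a retained follicle that was low.

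Rank 92, also in no group, showed a like split. In MGCs 10 follicles (S3, S7, S9, M3, M8, L1, L3, L4, L7 and L9, of which M8 and L9 were healthy) stood at 303 to 711 CPM and the other 17 at 12.9 to 91.9 CPM. In CCs the first set stood at 87.4 to 426 CPM and the second at 11.5 to 119 CPM, with L9, S1 and M5 in the overlap. In oocytes the first set stood at 13.9 to 21.5 CPM and the second at 1.62 to 13.98 CPM, and M4 was the only oocyte of the second set within the range of the first. The slope was 0.67 ± 0.11 in CCs (SE; limma-moderated adjusted p = 0.00162) and 0.51 ± 0.07 in oocytes (adjusted p = 6.09e-05). These slopes were also fitted across both sets, and the relation within each set was not tested. S7, M8 and L3 were high for both genes, and all other follicles high for 1 were low for the other.

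**Figure D5:**
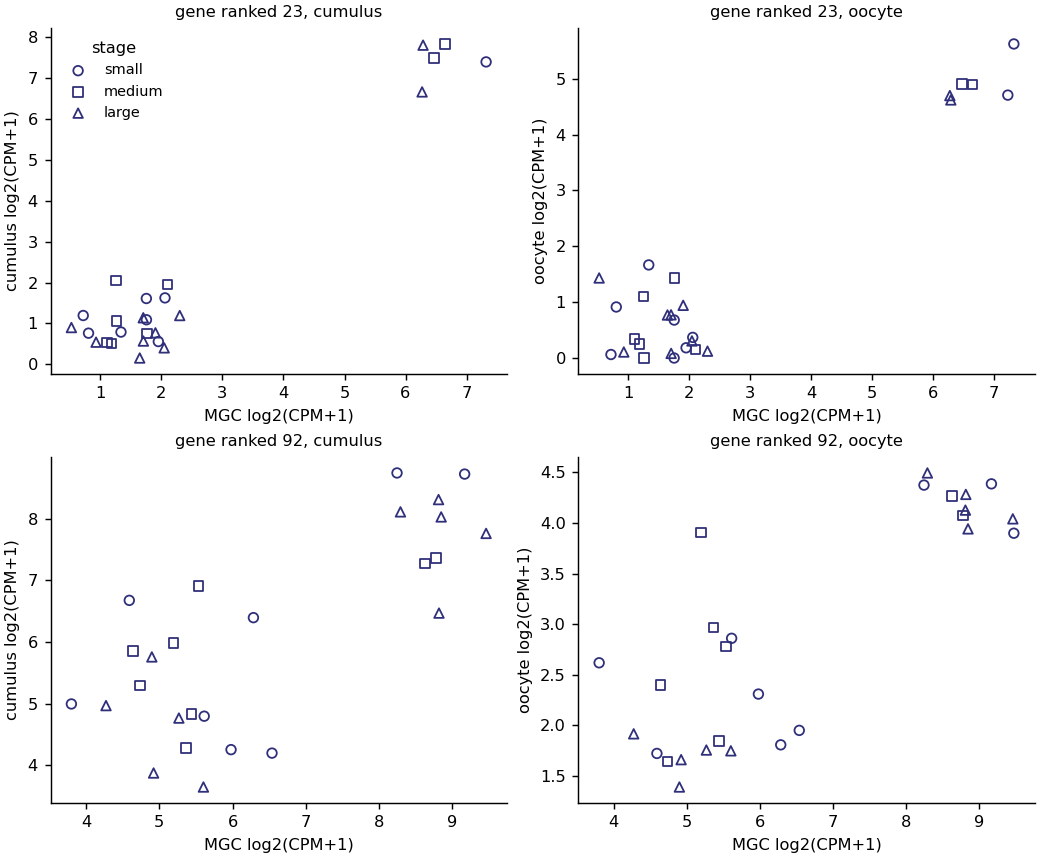
Level of the genes of rank 23 (upper panels) and rank 92 (lower panels) in cumulus cells (left) and oocytes (right) against the level in mural granulosa cells of the same follicle, as log2(CPM+1), 1 point per follicle with symbols by size class. For rank 23 the 6 high follicles stood at 76.3 CPM or more in mural cells and 23.6 CPM or more in oocytes, with no follicle between the sets.

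Ranks 10 and 24 were each other's nearest gene in MGCs, with a correlation of 0.93 over 27 follicles. Rank 10 was at 0.166 to 1.25 CPM in M4, M7, L3, L5, L6 and L8 and at 7.22 to 533 CPM in the other MGC libraries. In CCs those 6 follicles stood at 0 to 0.672 CPM and the others at 0 to 73.7 CPM, and the slope was 0.55 ± 0.10 (limma-moderated adjusted p = 0.00498). Rank 24 had 10 low follicles in MGCs, the same 6 with S9, M2, M8 and L10, and its slope in CCs was 0.48 ± 0.10 (adjusted p = 0.0263). In oocytes rank 10 reached at most 4.60 CPM and rank 24 at most 3.14 CPM.

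Among the named genes, the closest to a called slope was ENSBTAG00000048508, whose CC level changed by 0.313 ± 0.086 per unit of MGC log2(CPM+1) (limma-moderated adjusted p = 0.107). Its partial r was 0.580 (permutation p = 0.0057), Spearman's rho of the class-centred values was 0.603 (permutation p = 0.0041), and r was 0.567 without S2 and L1, the follicles farthest from the median. These are 1 of 12 such relations computed in CCs. ENSBTAG00000014890 had a slope of 0.074 ± 0.047 (adjusted p = 0.570) and ENSBTAG00000000836 of 0.052 ± 0.091 (adjusted p = 0.883). In oocytes ENSBTAG00000000836 had a slope of -0.091 ± 0.035 (adjusted p = 0.478).

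The 3 removed follicles offer the same measure in MGC libraries that the ranking did not use, although they were set aside on library quality. The variable genes deviated from the mean of the retained follicles of the same class by a median of 1.80 (log2, absolute) in the small removed follicle and by 1.09 and 1.08 in the medium ones. Over the 6991 genes the medians were 0.428, 0.320 and 0.365. Deviations above 1 were seen for 73.5%, 54.0% and 52.5% of the variable genes, against 13.5%, 8.01% and 12.4% of the 6991. Group B was below the class mean in 73, 67 and 60 of 73 genes, and group A was above it in 102, 99 and 67 of 115 genes. Over the 6991 genes 4843, 3878 and 3164 were above it. The small follicle and 1 medium follicle thus had group A high and group B low (median deviations of 1.43 and -2.25, and of 0.87 and -1.19), whereas the other medium follicle had group B low (-2.34) with group A near the class mean (0.16). Rank 23 was low in all of them, at 0.246 to 2.56 CPM over their 9 libraries. Rank 92 was at 642 CPM in the MGCs, 220 in the CCs and 16.1 in the oocyte of 1 removed medium follicle, within the high set in each cell type, and at or below 48.7 CPM in the other two.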

How the data were processed

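The authors deposited 1 table of read counts per gene for 90 bovine libraries, unnormalised whole numbers made with featureCounts on the ARS-UCD1.2 build. The submitters' processing notes name HISAT2 2.2.1 as the aligner, whereas the study's methods name STAR with uniquely mapped reads only, and which of them made the counts is not settled. Unique mapping removes reads shared by near-identical gene copies, and strand was not stated. The table holds no symbols, so the gene lists and cell type markers chosen by symbol were not run, and of the rule for named genes only its last clause applied: the 2 highest-ranked genes above and the 2 below in healthy follicles are named by identifier, and the rest go by rank. The members, groups and comparisons were chosen with earlier results of these data known. The healthy set is the study's own and is not in the sample labels.

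CPM were computed from column totals, with a pseudocount of 1 for log2 values. Groups came from average linkage on 1 minus Pearson's r of class-centred MGC values, with the tree divided at a height of 0.6 and at least 5 genes per group. The filter for the count tests kept genes above 1 CPM in at least 15 retained libraries of a cell type. Counts were tested with edgeR 4.0.16 (TMM, quasi-likelihood F test; DESeq2 1.42.0 as an alternative) and slopes with limma 3.58.1 (squeezed variances), in R 4.3.3, with Benjamini-Hochberg adjustment over all genes tested. Permutation tests used 100000 resamples within a size class and were two-sided. Python 3.11.15 was used otherwise. Both tests were also run on simulated data with known changes. The alternatives were other pseudocounts, filters, scalings and tools, the prefix as a covariate, all 30 follicles, 1 health class alone, ranks, and leaving out each follicle.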

Additional observations from a re-analysis of the deposited data

Results flagged for a closer look

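Of 72 groups of 4 to 10 libraries screened with Dixon's ratio of the end gap to the range, 3 held a library far from the others, and chance flags about 1 in 20 such groups. ENSBTAG00000004104 was highest in the CCs of S6 among small follicles (ratio 0.708, n = 8), at 0.28 on the log2(CPM+1) scale against 0 to 0.08 in the other CC libraries, a level of less than 1 CPM. The gene of rank 23 was highest in the CCs of S2 among small follicles (ratio 0.844, n = 8), at 7.40 on the log2(CPM+1) scale against 0.56 to 1.63. The mean deviation of group A in small oocytes was lowest in S9 (ratio 0.592, n = 9), at -0.75 against -0.14 to 0.28 in the other oocytes.

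A signal was also present in the CC library of S7, which entered no comparison because of its low count. Rank 23 had 115 counts there, or 69.0 CPM, where 3 counts, the limit that a count of 0 allows, would be 1.80 CPM. S7 was 1 of the 6 follicles with this gene high in MGCs and in the oocyte. In that library 7 of the 200 variable genes had any count. The floor covers counting error only.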

How the results depend on the processing

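The list of variable genes was sensitive to how the ranking was made: 133 of 200 were kept with a minimum of 50 CPM, 132 with the median absolute deviation, and 56 when the 10 healthy follicles alone were ranked, against 146 to 181 under the other alternatives and 160 or more when 1 follicle was left out. Counts of calls between size classes moved as follows: with DESeq2 3 from small to medium (1.52%, against 1.64% of all genes) and 21 from small to large follicles (10.6%, against 5.82%), with the prefix as a covariate 22 from small to large (11.1%, against 8.28%), and in the 10 healthy follicles 15, 60 and 50, which draw on the values that chose the genes. Leaving out 1 follicle at a time kept both neighbouring comparisons at 0 and gave 3 to 13 calls from small to large, with 7 or fewer without any of S1 to S7, S9, L5, L7, L8, L9 or L10. Between health classes, DESeq2 called 11 variable genes in CCs (5.56%, against 1.33%) and 1 in oocytes (0.529%, against 0.0335%), testing without a filter called 2 in CCs (1.0%, against 0.016%), and leaving out 1 follicle gave 0 to 4 in CCs (1 or more without L2, L7 or L8) and 0 in oocytes. Slopes of CCs on MGCs were called for 4 variable genes with a pseudocount of 0.1, 5 with a pseudocount of 10, 3 with a minimum mean of 10 CPM, 4 with the prefix as a covariate, 3 outside the healthy set, 0 with ranks and 3 with S7 (0.0259% to 0.492% of all genes in these fits), and for 5 to 11 with 1 follicle left out. Slopes of oocytes were called for 0 at a minimum mean of 10 CPM, where both genes were filtered out, for 0 with ranks, and for 2 whichever follicle was left out. The median deviations of the removed follicles moved by less than their spread in each alternative run.

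Of 873 alternative values for the 4 named genes, 826 kept direction and side of the threshold, 18 lost a call, 5 gained one and 24 changed direction. No value that changed direction was past the threshold in the main result. With the prefix as a covariate, ENSBTAG00000014890 gave -0.0335 from small to medium follicles and -0.40 in CCs, and ENSBTAG00000004104 gave -2.94 from small to large. In the 10 healthy follicles, ENSBTAG00000004104 gave -1.68 between small and medium and 3.74 between medium and large follicles, and ENSBTAG00000000836 gave -0.49 from small to medium, where all 30 follicles gave -0.48. From small to large, ENSBTAG00000000836 gave 1.07 with DESeq2. Outside the healthy set the oocyte slope of ENSBTAG00000048508 was -0.0513. With 1 follicle left out, ENSBTAG00000004104 ranged from -0.97 to 0.35 from medium to large, and ENSBTAG00000000836 from -2.58 to 1.03 from small to large, from -0.18 to 0.68 in CCs, and from -0.0014 to 0.098 for the CC slope. The cause of these changes was not tested. No paired analysis was possible because size classes and health classes hold different follicles, and the replicate numbers only name them. Genes below 1 CPM in CCs or oocytes were too shallow for a slope or a fold of their own. The counts between health classes in those cells still include such genes, except as filterByExpr drops them.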

Other observations

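The gene of rank 17, in no group, was also split in MGCs, but not in the matched cells. In 11 follicles (S2 to S7, S9, M2, M7, L4 and L8) it stood at 67.9 to 1054 CPM in MGCs, and in the other 16 at 0 to 13.5 CPM. In CCs the first set stood at 0 to 41.9 CPM and the second at 0 to 109 CPM, and the slope of CCs on MGCs was 0.11 ± 0.16 (SE; limma-moderated adjusted p = 0.846). In oocytes it was at or below 0.339 CPM in every library.

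The 5 genes of group C had a median of 198 CPM in MGCs, 52.1 CPM in CCs and 5.42 CPM in oocytes. In medium follicles 4 of the 5 were higher in healthy than in other follicles, and in large follicles 0 of the 5 were, which is a description only. Their partial correlation between CCs and MGCs was above 0 for 5 of 5 genes with a median of 0.389, and 1 of the 5, rank 47, was past the threshold with a slope of 0.62 ± 0.11 (adjusted p = 0.00309). For rank 47, r fell from 0.738 to 0.454 without S3 and M3, the follicles farthest from the median, so its relation rests in part on them.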
